A study of Mus musculus with 8 samples.

Results

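The genes described here are 46 interferon-stimulated genes, chosen by their symbols from a list of genes known to be induced by interferon, and read in T cells of mouse bone marrow by droplet-based single-cell RNA sequencing from the 5′ end of transcripts. Rows for 45 of the 46 symbols were present among the 32285 genes of the 4 gene expression libraries. Mx1 was not analysed here. T cells were taken from Runx1Runx1t1/+; Mx1-Cre mice, in which a knocked-in Runx1::Runx1t1 fusion gene is switched on by Cre recombinase (the Runx1::Runx1t1 group). Controls were Runx1Runx1t1/+ littermates of the same sex without Mx1-Cre (the control group, called WT in the sample labels). All mice were C57BL/6. Both groups received Poly(I:C), a double-stranded RNA that induces interferon, at 5 mg per kg in 4 injections given every other day. They were sacrificed 4 weeks later, and no group without Poly(I:C) and no earlier time was available for comparison. Cre was driven by the promoter of Mx1, itself an interferon-stimulated gene, and mCherry marked cells that express the fusion. The sorted cells were CD3+ and mCherry-, so the T cells of the Runx1::Runx1t1 group were selected for not carrying the reporter signal. Each group had 2 pools, each pool held T cells from 2 mice, and the pool was the replicate throughout (n = 2 per group). The difference between animals within a pool was not measured.

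Interferons are secreted proteins that warn cells of infection. Type I interferons bind a receptor made of Ifnar1 and Ifnar2. The kinases Jak1 and Tyk2 then phosphorylate signalling proteins, among them Stat2, which joins Irf9 in a complex that binds the interferon-stimulated response element in promoters. Interferon-gamma acts through another promoter element, the gamma-activated site. The induced genes detect viral nucleic acid, degrade viral RNA, block translation, and feed back on the pathway. T cells keep some of them on at a low level between infections.

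The libraries held between 90958101 and 102883449 UMIs (unique molecular identifiers, each counting 1 captured RNA molecule) and 52924 cells were kept. Cells were sorted into kinds by the UMIs of defining genes that are not among the 45: Cd8 cells (5994 to 7158 cells per pool), Cd4 cells (1075 to 2580), co-receptor-negative cells with a Cd3 UMI and neither co-receptor (1867 to 4705), and cells with a Kit and a Cd34 UMI, named Kit Cd34 cells (59 to 336). The Kit Cd34 cells did not have the T cell markers expected of the sort: Cd3d, Cd3e and Cd3g summed to 78.9 to 372 CPM (a gene's UMIs scaled to a common total of all UMIs in each pool and kind), against 2256 to 3281 CPM in Cd8 cells. Runx1t1, which also reads the fusion, lay at 17.6 and 17.1 CPM in Kit Cd34 cells of the Runx1::Runx1t1 pools and at 0.957 and 0.901 CPM in the control pools. The 5 progenitor markers (Kit, Cd34 and others) summed to 9327 and 9495 CPM against 1693 and 1303 CPM, so the Kit Cd34 cells of the groups differed in makeup. In the co-receptor-negative cells, 5 markers of natural killer and gamma-delta cells (Klrb1c, Klrk1, Ncr1, Fcer1g and Trdc) summed to 719 and 572 CPM in the Runx1::Runx1t1 pools and 1329 and 1237 CPM in the control pools. In the same cells 5 myeloid markers summed to 34.4 and 61.4 CPM in the Runx1::Runx1t1 pools and 1525 and 475 CPM in the control pools. Barcode sequences present in more than 1 library numbered 1420 and covered 5.40% of the kept cells.

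**Figure D1:**
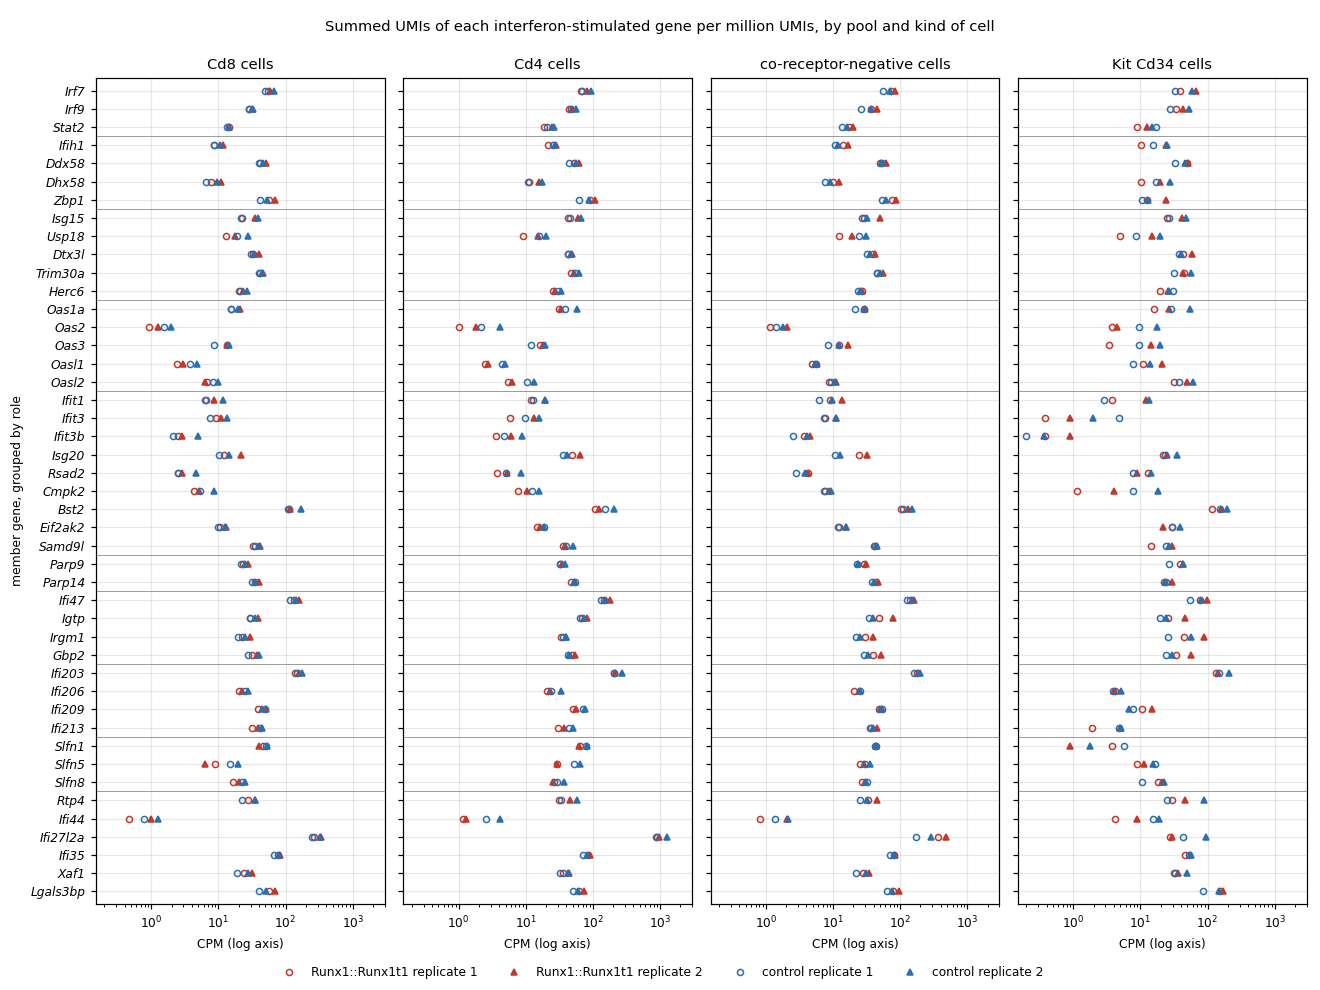
Level of each of the 45 interferon-stimulated genes in CPM of summed UMIs (log axis), in 4 panels by kind of cell; red marks the Runx1::Runx1t1 pools, blue the control pools, open circles replicate 1 and filled triangles replicate 2. Genes are grouped by role and values below 0.2 CPM are drawn at 0.2. Ifi27l2a lies highest in the 3 T cell kinds and far lower in Kit Cd34 cells.

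The promoters of these genes show what they share beyond being induced by interferon. RefSeq promoter windows (GRCm38.p6, 250 bases before to 50 after the start of transcription) matched 37 of the listed symbols. The core of the interferon-stimulated response element, TTTC, any 2 bases and TTTC, was searched on both strands with overlapping matches allowed and was found in 21 of the 37 windows (56.8%), against 3.99% of the windows of 27025 genes. The letters of the gamma-activated site, TTC, any 3 bases and GAA, which read the same on either strand, were found in 6 of 37 (16.2%), against 9.55% of all genes. A match is a description of the letters and not evidence that a factor binds. The stretches below lie upstream of the RefSeq start of each window on the strand of the gene, with matches to the first motif in capitals (GAAA, any 2 bases and GAAA where the match is on the opposite strand). The first 4 belong to genes that stood out most in single cells with many interferon-stimulated transcripts, as described below, and the others to genes whose level differed between kinds of cells or hardly followed those cells.
Rsad2, chr12:26456538-26456597, minus strand: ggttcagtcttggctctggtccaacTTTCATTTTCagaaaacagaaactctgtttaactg
Ifit3, chr19:34583348-34583441, plus strand: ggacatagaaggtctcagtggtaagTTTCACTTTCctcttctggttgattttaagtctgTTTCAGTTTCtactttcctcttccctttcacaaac
Ifit1, chr19:34640760-34640838, plus strand: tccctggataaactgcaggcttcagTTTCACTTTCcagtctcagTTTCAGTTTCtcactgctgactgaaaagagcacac
Isg15, chr4:156200850-156200921, minus strand: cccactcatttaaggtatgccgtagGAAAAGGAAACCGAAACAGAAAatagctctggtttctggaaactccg
Slfn5, chr11:82951922-82951981, plus strand: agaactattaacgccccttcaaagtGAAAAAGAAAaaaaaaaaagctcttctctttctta
Oas1a, chr5:120907526-120907570, minus strand: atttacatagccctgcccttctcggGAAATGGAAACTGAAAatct
Irgm1, chr11:48871421-48871475, minus strand: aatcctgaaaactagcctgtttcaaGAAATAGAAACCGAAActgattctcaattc
Ifi203, chr1:173942493-173942552, minus strand: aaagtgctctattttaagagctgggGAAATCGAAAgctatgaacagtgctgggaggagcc

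In the GENCODE M21 annotation of GRCm38, the genes Slfn5, Irgm1 and Ifi203 begin further upstream than the RefSeq start, so their stretches lie within the annotated gene, in an exon for Irgm1 and in an intron for Slfn5 and Ifi203. The other 5 lie outside the gene. The Isg15 stretch holds 3 overlapping matches and the Oas1a and Irgm1 stretches 2 each, also overlapping, while the Ifit1 and Ifit3 stretches hold 2 separate ones. The 94 bases of Ifit3 are letter for letter the same upstream of its neighbour Ifit3b (chr19:34607744-34607837, plus strand). Several members sit in families of neighbouring genes: Ifit3, Ifit3b and Ifit1 on chromosome 19, Ifi206, Ifi213, Ifi209 and Ifi203 on chromosome 1, the Oas genes on chromosome 5, and Slfn5, Slfn8 and Slfn1 among 10 members on chromosome 11. Near-identical family members can share or lose reads, so the split of UMIs between Ifit3 and Ifit3b, and within the Oas, Ifi200 and Slfn families, is uncertain.

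Interferon-stimulated transcripts were present in every pool and kind of cell 4 weeks after Poly(I:C). The 45 genes together made up 1595 and 1905 CPM in Cd8 cells of the Runx1::Runx1t1 pools and 1539 and 1945 CPM in the control pools, so the groups overlapped. The sums were 2686 and 3046 CPM against 2744 and 3609 CPM in Cd4 cells. In co-receptor-negative cells they were 1987 and 2398 CPM against 1630 and 1986 CPM, and in Kit Cd34 cells 1282 and 1704 CPM against 1261 and 1919 CPM. In each of the 4 pools the Cd4 sum was the highest of the 4 kinds. A level summed over cells does not tell more cells with the transcript from more transcript per cell. A single gene, Ifi27l2a, a small interferon-induced membrane protein, supplied 16.8% of the UMIs of the 45 genes in Cd8 cells, 33.1% in Cd4 cells and 14.95% in co-receptor-negative cells. Ifi203, of the DNA-binding Ifi200 family, was next with 8.82%, 7.33% and 9.37%. In Kit Cd34 cells Ifi203 supplied 10.4%, Bst2, a membrane tether that holds back budding virus, 9.88%, and the secreted glycoprotein Lgals3bp 8.94%.

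Among the transcription factors, Irf7, the regulator that amplifies interferon production, was read at 54.9 and 58.4 CPM in the Runx1::Runx1t1 pools and 49.8 and 68.2 CPM in the control pools in Cd8 cells, and the groups overlapped. Its mean over the 4 pools was 57.8 ± 7.78 CPM (SD, n = 4 pools here and for the means that follow) in Cd8, 77.3 ± 12.2 CPM in Cd4, 69.9 ± 11.2 CPM in co-receptor-negative and 49.04 ± 15.9 CPM in Kit Cd34 cells. Irf9 and Stat2, partners in the interferon-stimulated transcription complex, were at 30.5 ± 1.999 CPM and 14.2 ± 0.467 CPM in Cd8 cells and at 48.5 ± 4.77 CPM and 22.4 ± 3.38 CPM in Cd4 cells. Of the sensors of foreign nucleic acid, Zbp1, which detects Z-form nucleic acid, stood at 55.02 ± 11.04 CPM in Cd8 cells and 15.1 ± 6.15 CPM in Kit Cd34 cells. The RNA sensors Ddx58 (RIG-I), Ifih1 (MDA5) and Dhx58 (LGP2) were at 44.8 ± 5.25 CPM, 9.86 ± 1.43 CPM and 8.56 ± 1.92 CPM in Cd8 cells.

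Isg15, a ubiquitin-like modifier, was read in Cd8 cells at 22.7 and 35.5 CPM in the Runx1::Runx1t1 pools and 21.5 and 38.4 CPM in the control pools. Usp18, the protease that removes it and blocks signalling at the receptor, was at 12.98 and 17.7 CPM in the Runx1::Runx1t1 pools and 18.6 and 27.6 CPM in the control pools. In both genes replicate 2 exceeded replicate 1 in each group. The antiviral effectors that are known for steep induction were sparse: Rsad2 (viperin) ranged over 2.53 to 4.63 CPM, Ifit1 over 6.38 to 11.7 CPM and Ifit3 over 7.54 to 13.4 CPM in Cd8 cells. Their ranges were 7.70 to 14.4 CPM, 2.89 to 13.3 CPM and 0.382 to 4.81 CPM in Kit Cd34 cells. Oasl2, of the oligoadenylate synthetase family, ranged over 6.22 to 10.00 CPM in Cd8 cells and 31.7 to 59.98 CPM in Kit Cd34 cells, where no pool fell within the Cd8 range. Bst2 ranged over 109.9 to 171 CPM in Cd8 cells and 108 to 203 CPM in Cd4 cells. The GTPases that interferon-gamma induces against intracellular parasites, Igtp, Irgm1 and Gbp2, were at 33.3 ± 4.40 CPM, 23.9 ± 4.25 CPM and 34.1 ± 5.34 CPM in Cd8 cells. Slfn1, a Schlafen protein linked to T cell quiescence, was at 45.3 and 40.8 CPM in the Runx1::Runx1t1 pools and 50.8 and 52.6 CPM in the control pools in Cd8 cells.

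Replicate 2 lay above replicate 1 in both groups for 39 of the 45 genes in Cd8 cells, 41 in Cd4 cells and 39 in co-receptor-negative cells, and for 33 of the 42 genes tested in Kit Cd34 cells. The opposite order in both groups was found for 0 members in these 4 kinds. Among all genes tested, replicate 2 was the higher in both groups for 34.6% in Cd8, 23.8% in Cd4, 26.5% in co-receptor-negative and 29.1% in Kit Cd34 cells. For the 31 members with a level of at least 10 CPM in Cd8 cells, the median ratio of replicate 2 to replicate 1 was 1.21 with the fusion and 1.19 in controls. Over all such genes the medians were 1.07 and 0.991. The labels give the replicate number no meaning beyond a name, and a shared day, batch or litter was not tested. Most members thus moved together between the pools of a group.

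Cd4 cells were compared with Cd8 cells of the same pools, with the pool as a block, to ask which members differ in basal level between the T cell lineages. Of the 45 genes, 29 passed edgeR's quasi-likelihood test at a Benjamini-Hochberg adjusted p under 0.05, 26 higher in Cd4 cells (24.0% of the 12596 genes tested were higher) and 3 lower (21.2%), against 45.3% of all genes in either direction. The median log2 difference was 0.25 over the 45 genes and 0.01 over all genes. Log2 differences here and below are after edgeR's TMM scaling between sums, which the CPM levels do not have. A log2 difference therefore need not match a ratio of CPM. By role, all 3 transcription factors, all 3 Schlafen genes, both PARP genes (Parp9 and Parp14), 3 of the 4 sensors, 6 of 9 antiviral effectors and 2 of 4 interferon-gamma-induced GTPases were higher. Fewer were higher in the Isg15 system and its ubiquitin ligases (2 of 5, with 1 lower), the Ifi200 family (1 of 4, with 1 lower) and the Oas family (1 of 5, Oas1a), and of 6 other induced genes 3 were higher and 1 lower.

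Ifi27l2a was at 263 and 338 CPM in the Runx1::Runx1t1 pools and 244 and 324 CPM in the control pools in Cd8 cells. In Cd4 cells it was at 906 and 972 CPM in the Runx1::Runx1t1 pools and 866 and 1282 CPM in the control pools, without overlap with Cd8 cells. The log2 difference was 1.51 ± 0.06 (SE), adjusted p = 4.69e-06. Isg20, an exonuclease that degrades viral RNA, read 12.1, 21.96, 10.1 and 14.4 CPM in Cd8 cells (the Runx1::Runx1t1 pools first, then the control pools, as in all such series) and 49.1, 65.2, 35.7 and 41.5 CPM in Cd4 cells, a log2 difference of 1.47 ± 0.09 (SE), adjusted p = 2.66e-05. Slfn5, a nuclear Schlafen protein, differed by 1.57 ± 0.10 (SE), adjusted p = 3.98e-05, from 6.41 to 19.7 CPM to 28.8 to 63.6 CPM. Every Cd4 pool exceeded every Cd8 pool for these 3 genes.

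Ifih1 was 8.68, 11.5, 8.65 and 10.6 CPM in Cd8 and 21.4, 27.8, 25.1 and 27.5 CPM in Cd4 cells, a log2 difference of 1.10 ± 0.06 (SE), adjusted p = 2.30e-05. Igtp differed by 0.85 ± 0.05 (SE), adjusted p = 2.57e-05, Isg15 by 0.62 ± 0.05 (SE), adjusted p = 8.63e-05, and Oas1a by 0.85 ± 0.12 (SE), adjusted p = 0.000934. Smaller differences were found for Irf9 (0.40 ± 0.04), Zbp1 (0.40 ± 0.05), Xaf1, a promoter of apoptosis (0.33 ± 0.05), and Slfn1 (0.33 ± 0.05). The pattern went the other way for Usp18, which read 12.98, 17.7, 18.6 and 27.6 CPM in Cd8 and 9.03, 15.2, 15.6 and 19.8 CPM in Cd4 cells, a log2 difference of -0.63 ± 0.08 (SE), adjusted p = 0.000749. It was lower in Cd4 than in Cd8 cells of each of the 4 pools, although the ranges over pools overlapped. Ifi213 (-0.25 ± 0.05) and Ifi35 (-0.17 ± 0.05) were the other 2 that passed as lower after TMM scaling. In unscaled UMIs summed over the pools, Ifi35 had 3443 of 40966210 in Cd4 cells and 15838 of 204902929 in Cd8 cells. That share was not lower in Cd4 cells.

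**Figure D2:**
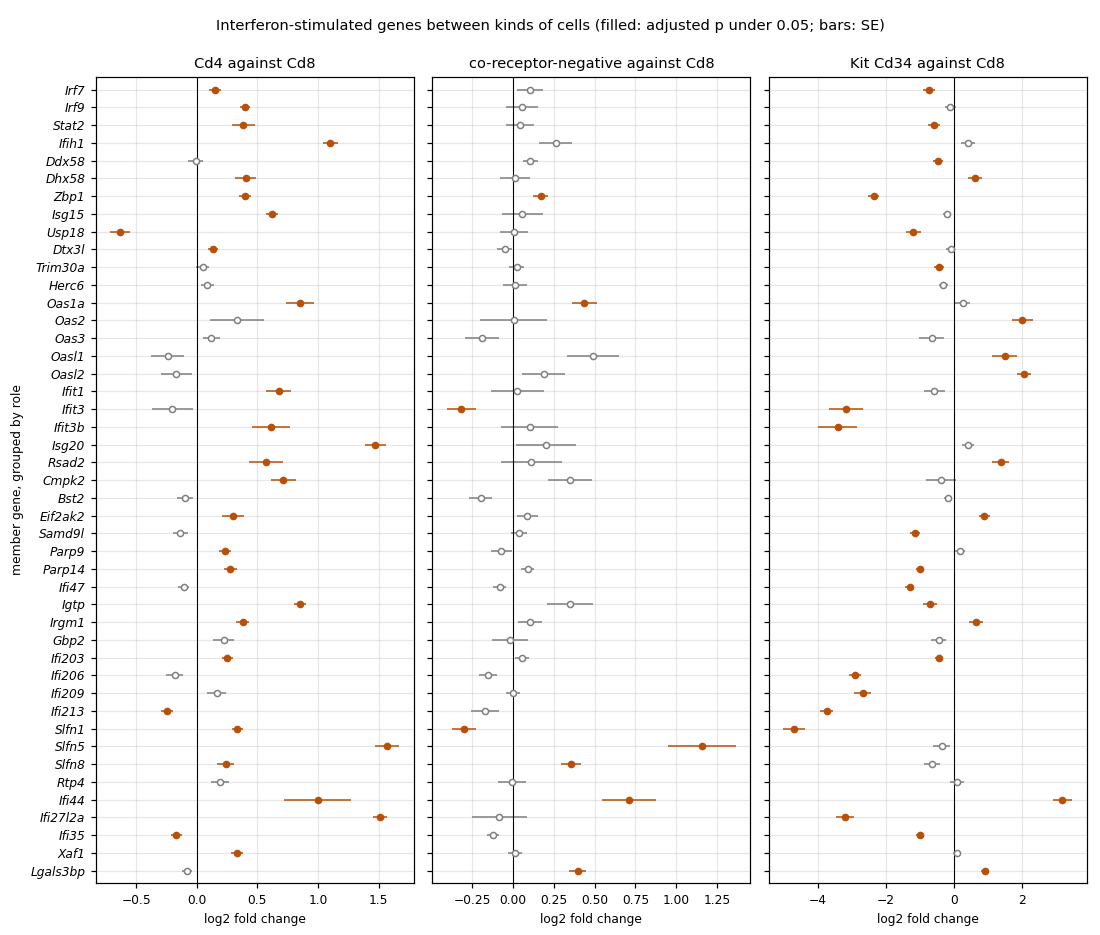
Log2 difference in level of each of the 45 genes against Cd8 cells of the same pools, for Cd4, co-receptor-negative and Kit Cd34 cells; bars are standard errors and filled orange points passed an adjusted p of 0.05 in edgeR. Cd4 cells lie mostly to the right of 0, co-receptor-negative cells near 0, and Kit Cd34 cells spread to both sides, from Slfn1 at -4.69 to Ifi44 at 3.19.

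Co-receptor-negative cells stood closer to Cd8 cells. Of the 45 genes, 8 passed the test, 6 higher and 2 lower, against 28.7% of all 12890 genes tested (17.1% higher and 11.6% lower). The 6 that were higher were Slfn5 (1.16 ± 0.21), Ifi44 (0.71 ± 0.17), Oas1a (0.44 ± 0.08), Lgals3bp (0.40 ± 0.05), Slfn8 (0.36 ± 0.06) and Zbp1 (0.17 ± 0.05). The 2 that were lower were Ifit3 (-0.32 ± 0.09) and Slfn1 (-0.30 ± 0.07), as log2 differences ± SE. Slfn5 was 24.96, 28.5, 29.7 and 35.3 CPM in co-receptor-negative cells and 8.95, 6.41, 15.1 and 19.7 CPM in Cd8 cells. The count was 3 without the Runx1::Runx1t1 replicate 1 pool (15.3% of all genes) and 4 without the control replicate 1 pool (19.2%). Only the Lgals3bp, Slfn8 and Oas1a calls were kept under every alternative tried. The median log2 difference of the 45 genes was 0.04, and that of all genes 0.01.

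Kit Cd34 cells differed from Cd8 cells in 28 of the 45 genes, 9 higher and 19 lower. Of all 12789 genes tested 52.1% passed, 25.6% higher and 26.5% lower. All 4 genes of the Ifi200 family passed as lower after TMM scaling. For Ifi203 this was not seen in unscaled UMIs summed over the pools. It had 1985 of 11437651 UMIs in Kit Cd34 cells and 31721 of 204902929 in Cd8 cells, which is not a lower share. Ifi213 read 1.91, 4.93, 4.81 and 5.04 CPM in Kit Cd34 cells and 32.01, 39.2, 41.4 and 44.3 CPM in Cd8 cells, a log2 difference of -3.73 ± 0.19 (SE), adjusted p = 4.71e-05. Ifi206 and Ifi209 differed by -2.91 ± 0.17 and -2.68 ± 0.24. Slfn1 read 3.82, 0.897, 5.77 and 1.80 CPM against 45.3, 40.8, 50.8 and 52.6 CPM, a log2 difference of -4.69 ± 0.32 (SE), adjusted p = 0.000112. Ifi27l2a was also lower (-3.20 ± 0.27 (SE), adjusted p = 0.000225), as were Zbp1 (-2.36 ± 0.17), the neighbours Ifit3 (-3.18 ± 0.50) and Ifit3b (-3.42 ± 0.57), Ifi47 (-1.30 ± 0.13), Samd9l, a restrictor of translation (-1.14 ± 0.14), Ifi35 (-1.01 ± 0.09) and Parp14 (-1.002 ± 0.12).

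A smaller set was higher in Kit Cd34 cells. Ifi44 read 4.20, 8.97, 15.4 and 18.9 CPM in Kit Cd34 cells and 0.471, 0.975, 0.789 and 1.24 CPM in Cd8 cells, a log2 difference of 3.19 ± 0.29 (SE), adjusted p = 0.000284. Of the 5 Oas genes, Oasl2 (2.06 ± 0.19), Oas2 (2.01 ± 0.31) and Oasl1 (1.49 ± 0.37) were higher and none was lower. Rsad2 (1.37 ± 0.26), Lgals3bp (0.90 ± 0.12), the RNA-activated kinase Eif2ak2 (0.89 ± 0.16), Irgm1 (0.65 ± 0.21) and Dhx58 (0.61 ± 0.20) completed the 9. Isg15 was 24.8, 41.3, 26.9 and 47.9 CPM, and its difference from Cd8 cells did not pass the test.

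The groups were then compared within each kind of cell, to ask whether the level of interferon-stimulated genes in cells sorted as mCherry- differs between them. The sort alone does not show that these cells lacked the fusion. Kit Cd34 cells from the same sort read more Runx1t1 in the Runx1::Runx1t1 pools, as given above. In Cd8 cells 0 of the 45 genes passed edgeR's quasi-likelihood test (11 had an unadjusted p under 0.05 and DESeq2 called 1, Slfn5, lower in the Runx1::Runx1t1 group, beside 6.46% of all genes), and 0.00756% of all 13227 genes did. The median log2 difference of the 45 genes was -0.07 and that of all genes -0.01. The 2 groups did not overlap for 13 genes, 3 with both Runx1::Runx1t1 pools above (33.9% of all genes) and 10 with both below (21.3%). Markers of other cell types moved with the group in these cells. The 5 myeloid markers summed to 12.8 and 21.4 CPM in the Runx1::Runx1t1 pools and 194 and 80.99 CPM in the control pools, and the natural killer and gamma-delta markers to 149.6 and 102 CPM in the Runx1::Runx1t1 pools and 323 and 323 CPM in the control pools. Their part in the values was not tested beyond leaving out cells with 2 or more B, myeloid or dendritic marker UMIs. That filter took out 13204 of the 52924 kept cells and left 5241, 5589, 4231 and 4855 Cd8 cells. Whether the cells taken out were of other types, or T cells with such UMIs, was not tested. After that, 0 of 45 genes and 0.0475% of all genes passed in edgeR, and 10 members had an unadjusted p under 0.05. The filter did not count Lyz2, S100a8 or S100a9, so only Csf1r and Elane stood for the myeloid markers. Cells whose only myeloid UMIs were of the uncounted genes could thus stay in. An exact permutation test of 2 pools against 2 cannot give a two-sided p below 0.333.

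In Cd4 cells only Slfn5 passed, at 29.6 and 28.8 CPM in the Runx1::Runx1t1 pools and 52.2 and 63.6 CPM in the control pools, without overlap between the groups. Its log2 difference was -0.94 ± 0.13 (SE), adjusted p = 0.0192, and of all 11563 genes 2.00% were called (0.666% lower). The same gene read 8.95, 6.41, 15.1 and 19.7 CPM in Cd8 cells, also without overlap, where it did not pass. The call was lost without the Runx1::Runx1t1 replicate 2 pool and when 1 cell was kept per T cell receptor clonotype. The median log2 difference of the 45 genes was -0.16 with all pools, -0.36 without control replicate 1 and 0.04 without control replicate 2. It was -0.06 without Runx1::Runx1t1 replicate 1 and -0.27 without Runx1::Runx1t1 replicate 2. The groups did not overlap for 23 members, 18 of them lower in the Runx1::Runx1t1 pools (30.7% of all genes were) and 5 higher (20.1%). The natural killer and gamma-delta markers were at 102 and 56.2 CPM in the Runx1::Runx1t1 pools and 263 and 229 CPM in the control pools in these cells. Without cells holding 2 or more B, myeloid or dendritic marker UMIs, 4 members and 3.98% of all genes passed. Isg15 overlapped, at 42.6 and 60.9 CPM in the Runx1::Runx1t1 pools and 44.9 and 67.4 CPM in the control pools.

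In co-receptor-negative cells 3 of the 45 genes passed, 2 higher and 1 lower. Of all 12547 genes 9.41% passed, 5.69% higher and 3.72% lower. Isg20 was 24.5 and 32.3 CPM in the Runx1::Runx1t1 pools and 10.6 and 12.5 CPM in the control pools, a log2 difference of 1.21 ± 0.14 (SE), adjusted p = 0.00213. Zbp1 was 76.5 and 85.96 CPM in the Runx1::Runx1t1 pools and 54.2 and 60.7 CPM in the control pools, a log2 difference of 0.42 ± 0.08 (SE), adjusted p = 0.0202. Usp18 went the other way, at 12.4 and 18.8 CPM in the Runx1::Runx1t1 pools and 24.7 and 31.3 CPM in the control pools, a log2 difference of -0.95 ± 0.19 (SE), adjusted p = 0.0195. For 20 members both Runx1::Runx1t1 pools lay above both control pools (38.2% of all genes) and for 4 they lay below (19.3%). In the same cells the natural killer and gamma-delta markers were lower and the myeloid markers far lower in the Runx1::Runx1t1 pools, as given above. A Cd4 cell in which no Cd4 UMI was read also counts as co-receptor-negative, and the number of such cells was not measured. Cd4 cells made up 18.7% and 18.8% of the kept cells in the Runx1::Runx1t1 pools and 9.08% and 7.98% in the control pools. Isg20 and Zbp1 were higher and Usp18 lower in Cd4 than in Cd8 cells, as given above. The part of these mixtures in the result was not tested beyond 2 restrictions. With only cells that had a Klrb1c or Klrk1 UMI, 0 of the 45 genes passed in edgeR (11 had an unadjusted p under 0.05; DESeq2 was not run on these cells), and the share of all genes that passed also fell, to 1.84%. Without cells that had 2 or more B, myeloid or dendritic marker UMIs, 8 members and 10.3% of all genes passed. That filter again did not count Lyz2, S100a8 or S100a9. The median log2 difference of the 45 genes also moved with single pools. It was 0.11 with all pools, 0.27 without control replicate 2 and -0.04 without control replicate 1. Without Runx1::Runx1t1 replicate 1 it was 0.19, and without Runx1::Runx1t1 replicate 2 it was 0.04. The Zbp1 call was lost without control replicate 1.

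**Figure D3:**
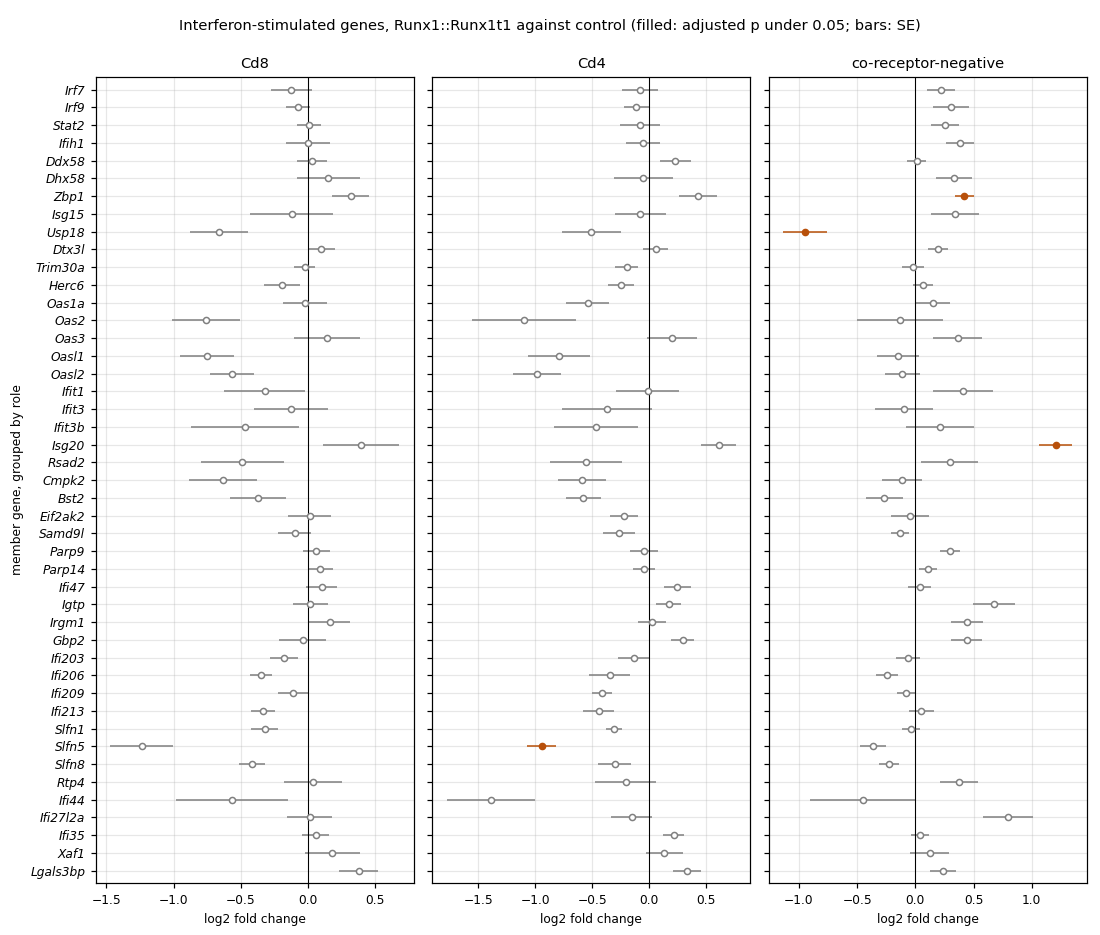
Log2 difference of the Runx1::Runx1t1 group from the control group for each of the 45 genes, by kind of cell; bars are standard errors and filled orange points passed an adjusted p of 0.05 in edgeR. The panels show Cd8, Cd4 and co-receptor-negative cells, and the filled points are the 1 call in Cd4 cells (Slfn5) and the 3 in co-receptor-negative cells, with none in Cd8 cells.

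In Kit Cd34 cells, 6 of the 42 genes tested passed, 5 lower and 1 higher in the Runx1::Runx1t1 group, against 22.7% of 10444 genes (11.6% lower and 11.1% higher). Cmpk2, a mitochondrial nucleotide kinase, read 1.15 and 4.04 CPM in the Runx1::Runx1t1 pools and 7.70 and 18.2 CPM in the control pools (log2 difference -2.43 ± 0.58). Oas2, which makes the activator of RNase L, was 3.82 and 4.49 CPM in the Runx1::Runx1t1 pools and 9.62 and 17.5 CPM in the control pools (-1.74 ± 0.41), and Oas1a, of the same family, 16.05 and 26.5 CPM in the Runx1::Runx1t1 pools and 28.9 and 54.2 CPM in the control pools (-1.01 ± 0.31). Ifi44 lay at 4.20 and 8.97 CPM in the Runx1::Runx1t1 pools and 15.4 and 18.9 CPM in the control pools (-1.36 ± 0.37). Ifi27l2a was 27.5 and 29.6 CPM in the Runx1::Runx1t1 pools and 42.3 and 96.01 CPM in the control pools (-1.30 ± 0.32). Gbp2 was the one that was higher, at 34.01 and 55.6 CPM in the Runx1::Runx1t1 pools and 24.05 and 29.00 CPM in the control pools (0.79 ± 0.25). Because the progenitor markers of these cells differed between the groups as given above, a change within 1 cell type and a change in the mixture cannot be told apart. The control replicate 1 sum rests on 59 cells. The median log2 difference of the tested members was -0.21 with all pools, -0.40 without control replicate 1 and 0.23 without control replicate 2. It was -0.006 without Runx1::Runx1t1 replicate 1 and -0.30 without Runx1::Runx1t1 replicate 2. The Cmpk2, Oas2, Ifi44, Ifi27l2a and Oas1a calls were each lost without control replicate 2 and without Runx1::Runx1t1 replicate 1. Which members passed, and the direction of most tested members, thus depended on single pools. The 6 calls themselves reversed direction in 0 of the alternatives that gave a value.

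Whether the group effect itself differed between kinds of cells was tested with an interaction term. In simulated counts the 2 interaction tests recovered only 36 and 37 of 100 2-fold changes, so such differences could be missed. Between Cd4 and Cd8 cells 0 of the 45 genes passed (3 had an unadjusted p under 0.05 and DESeq2 called 0), against 0.349% of 12596 genes. Between co-receptor-negative and Cd8 cells 1 did, against 1.35% of 12890 genes. That gene, Ifi27l2a, read 366, 479.7, 174 and 285 CPM in co-receptor-negative cells, where the groups did not overlap, and 263, 338, 244 and 324 CPM in Cd8 cells, where they did. The difference of the log2 effects was 0.81 ± 0.11 (SE), adjusted p = 0.0365. That call was lost without control replicate 1 (adjusted p = 0.183) and without control replicate 2 (adjusted p = 0.0675).

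The rest of the pathway, from lists of ligands, receptors, signalling proteins, inhibitors, adaptors, class I presentation genes and other induced genes, was read the same way. The 8 type I and type III interferon genes listed gave 1 UMI in 360500888, which is below the level of 3 counts (0.00832 CPM), so expression of these interferons was not detectable at this depth. Ifng, the gene for interferon-gamma, was read at 75.9, 126, 57.1 and 84.97 CPM in Cd8 cells and 193, 183, 154 and 171 CPM in Cd4 cells, a log2 difference of 0.81 ± 0.12 (SE), adjusted p = 0.00133. Cd4 cells exceeded Cd8 cells in 6 of the 9 kinases and transcription factors tested, among them Jak2 (0.98 ± 0.07), with 2 lower. They did so in 17 of 25 other induced genes, with 2 lower (24.0% of all genes were higher and 21.2% lower), including the surface antigen Ly6a (2.33 ± 0.11) and the GTPases Iigp1 (2.00 ± 0.14), Gbp6 (0.76 ± 0.06) and Gbp3 (0.76 ± 0.07). The phosphatase Ptpn6, an inhibitor of the pathway, was lower (-0.56 ± 0.05). In Kit Cd34 cells 12 of the 14 class I presentation genes were lower than in Cd8 cells and 0 higher (26.5% of all genes were lower). The inhibitor Socs1 (-2.80 ± 0.14) was lower. The membrane proteins Ifitm1 (6.31 ± 0.50), Ifitm2 (6.21 ± 0.38) and Ifitm3 (4.81 ± 0.41), which block virus entry, were higher.

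Between the groups, 0 of the 66 pathway genes tested passed in edgeR in Cd8 cells (13 had an unadjusted p under 0.05). In Cd4 cells 4 of 66 passed (2.00% of all genes): Ly6c2 (-1.23 ± 0.17), Ptpn6 (-0.46 ± 0.07) and the receptor chain Ifnar2 (-0.47 ± 0.08) were lower and the inhibitor Socs3 (0.45 ± 0.08) was higher in the Runx1::Runx1t1 group. In co-receptor-negative cells 14 of 66 passed (9.41% of all genes), 7 in each direction, among them the interferon-gamma receptor chain Ifngr2 (1.18 ± 0.12), Ly6a (0.95 ± 0.18), Gbp6 (0.76 ± 0.16) and Gbp3 (0.59 ± 0.09) higher. Those lower included Ifitm3 (-2.39 ± 0.13), Ifitm2 (-1.24 ± 0.09) and Ly6c2 (-0.83 ± 0.08), in the cells whose myeloid markers also were lower in that group.

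To describe how far expression was restricted to single cells, a response cell was defined as one with UMIs of at least 4 of 11 core members (Ifit1, Ifit3, Isg15, Rsad2, Cmpk2, Usp18, Oasl1, Oasl2, Irf7, Rtp4 and Zbp1). Each cell was thinned to 3000 UMIs, and shallower cells were left out (3.70% to 4.49% of Cd8, 4.998% to 12.7% of Cd4, 12.3% to 24.2% of co-receptor-negative and 1.69% to 12.6% of Kit Cd34 cells). Response cells made up 1.01% and 1.94% of Cd8 cells in the Runx1::Runx1t1 pools and 1.05% and 2.56% in the control pools. Their exact (Clopper-Pearson) 95% intervals for counting error were 0.781% to 1.28%, 1.63% to 2.30%, 0.801% to 1.35% and 2.19% to 2.98%. In Cd4 cells the shares were 1.60% and 3.43% against 1.88% and 3.55%. They were in co-receptor-negative cells 2.06% and 2.97% against 1.54% and 2.39%, and in Kit Cd34 cells 0.980% and 1.16% against 1.72% and 4.35%. Replicate 2 was above replicate 1 in both groups and all 4 kinds. In Kit Cd34 cells, however, the shares rest on only 2, 2, 1 and 14 response cells of 204, 173, 58 and 322. With at least 5 core genes those counts were 1, 2, 1 and 1, and the order of the control pools reversed (1.72% and 0.311%). The group means differed by -0.329 percentage points in Cd8 cells (1.48 ± 0.662% against 1.81 ± 1.07%, SD, n = 2 pools), -0.197 in Cd4 cells and 0.550 in co-receptor-negative cells, each with a two-sided exact permutation p of 0.667. In Kit Cd34 cells the difference was -1.97 (1.07 ± 0.124% against 3.04 ± 1.86%), with a two-sided exact permutation p of 0.333, the smallest that 2 pools against 2 allow. With at least 5 core genes it was -0.194, and the few response cells make both values uncertain. The Cd8 difference changed sign without Runx1::Runx1t1 replicate 1 (0.139) and without control replicate 2 (0.429), and so did that in Cd4 cells (0.722 and 0.639). Unthinned, the Cd8 shares were 4.53%, 7.12%, 3.77% and 6.79%, in cells with a median of 7272 to 8953 UMIs against 6730 to 7517 in the other Cd8 cells.

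**Figure D4:**
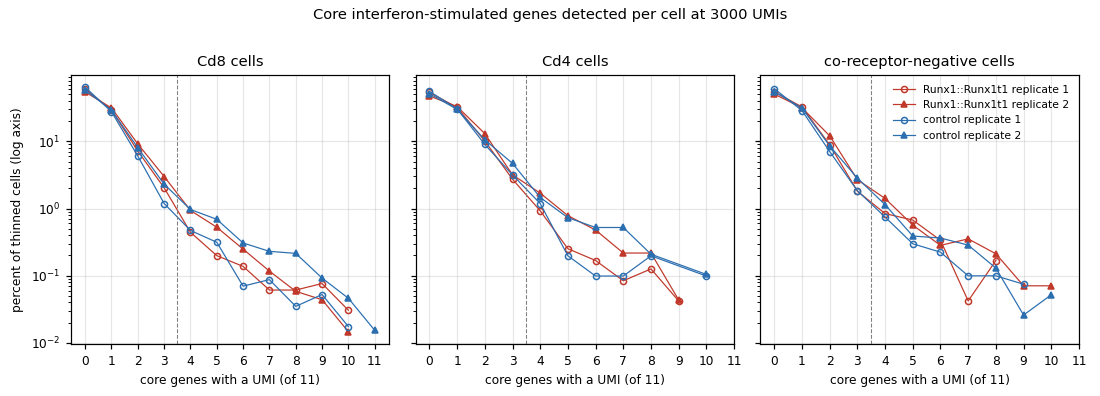
Share of Cd8, Cd4 and co-receptor-negative cells (percent, log axis) by the number of the 11 core genes with a UMI after thinning to 3000 UMIs, with 1 line per pool; the dashed line marks the limit of 4 genes for a response cell, and bins with no cell are not drawn. In every pool the shares fall from 0 to 4 genes with no gap at the limit, and above it they rest on few cells and are uneven.

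Response cells held a minor part of the interferon-stimulated transcripts. For this and the ratios that follow, they were taken at full depth, without thinning. They contained 14.97% to 24.1% of the UMIs of the 45 genes in Cd8 cells, 14.4% to 27.6% in Cd4 cells and 14.8% to 23.7% in co-receptor-negative cells. Of all UMIs they held 5.51% to 9.10% in Cd8, 5.19% to 11.5% in Cd4 and 4.51% to 9.65% in co-receptor-negative cells. Without them the 45 genes still summed to 1435 and 1686 CPM in Cd8 cells of the Runx1::Runx1t1 pools and to 1372 and 1601 CPM in the control pools, and within them to 4100 to 5965 CPM. The order of the replicates was counted again without response cells. Among members with at least 10 CPM in every pool, replicate 2 was the higher in both groups for 28 of 31 with all Cd8 cells and for 23 of 29 without response cells (36.4% of all genes). In Cd4 cells the counts were 32 of 36 and 21 of 33 (24.7% of all genes), in co-receptor-negative cells 30 of 34 and 22 of 31 (24.1%), and in Kit Cd34 cells 25 of 29 and 13 of 24 (26.4%).

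The members differed widely in how far they followed the response cells. The ratio of a gene's CPM in response cells to that in other Cd8 cells of the same pool is given here with no test, since response cells were chosen by member genes. For each core gene the cells were defined without it, by at least 4 of the other 10. Other members used at least 4 of 11, a looser limit. Ranks of core genes against other members are therefore not like comparisons. Among the core genes alone the medians ran from 3.83 (Oasl2) to 26.7 (Rsad2). Each median over the 4 pools is followed by the lowest and highest pool. Ifit3b, of the neighbouring pair, had a median ratio of 30.7 (23.4 to 39.05). It is not a core gene, so its response cells were chosen with Ifit3 counted, whose reads it may share. Its place above Ifit3 is therefore not a like comparison. Rsad2 had 26.7 (15.2 to 32.2), Ifit3 16.8 (13.3 to 22.2), Ifit1 14.8 (13.1 to 20.5) and Isg15 12.4 (6.42 to 16.5). At the other end stood Ifi47 with 1.71 (1.498 to 2.14), Samd9l with 1.87 (1.55 to 2.05), Ifi203 with 1.90 (1.58 to 2.10), Dtx3l, a ubiquitin ligase, with 1.91 (1.52 to 2.33) and Ifi35 with 1.92 (1.501 to 2.20). Over the 4 pools together, response cells held 64.8% of the Rsad2 UMIs, 53.5% of those of Ifit1 and 39.8% of those of Isg15, but 12.5% of those of Ifi203, 12.4% of those of Samd9l and 11.9% of those of Ifi47. The interferon-stimulated response element core was found in 11 of the 18 members in the upper part by ratio and in 10 of the 19 in the lower part. That order mixes core genes with other members.

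**Figure D5:**
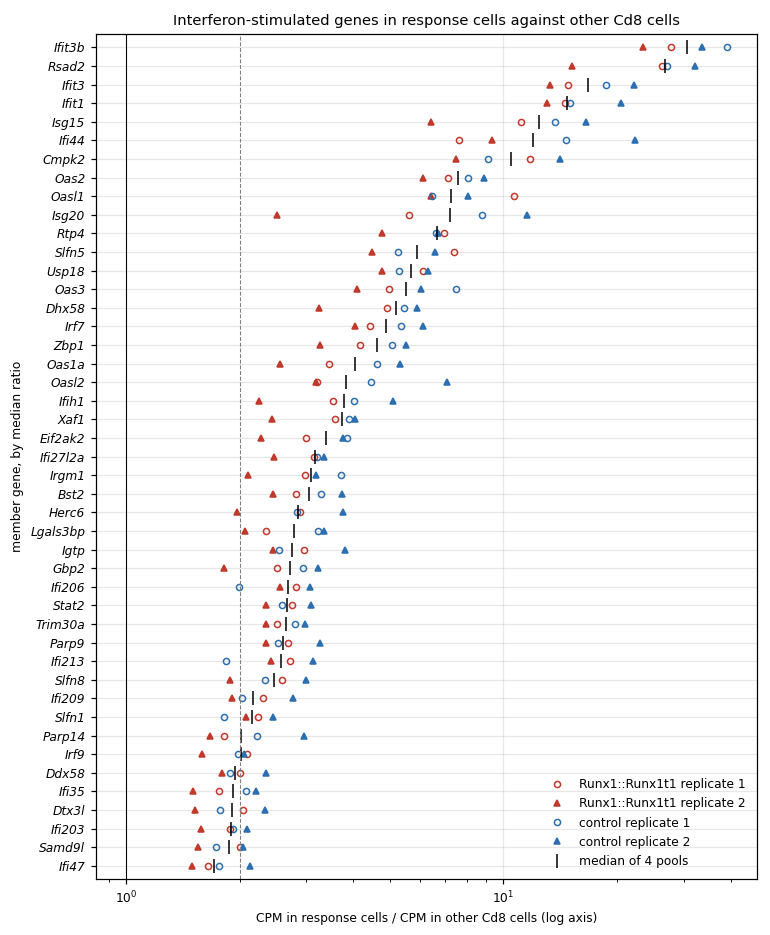
Ratio of the level in response cells to that in the other Cd8 cells for each of the 45 genes (log axis), with 1 point per pool, a tick at the median and a dashed line at 2. Genes are ordered by the median, from Ifit3b at 30.7 to Ifi47 at 1.71. The cells for Ifit3b were chosen with its neighbour Ifit3 counted. Core genes had a stricter limit for response cells than the other members, so the order of these 2 sets is not a like comparison.

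Genes that did not choose the response cells give a background for these ratios. Of 6826 such genes with at least 10 CPM in every pool of Cd8 cells, 23 (0.337%) had a ratio of at least 2 in all 4 pools, and 11 of these were among the 26 members in that set. With the limit for a response cell at 3 or at 5 core genes, the count of members was 2 or 20. Among the other 12 were Gbp6, Hsh2d, Ifi208, Ifi214, Ly6a, Lyz2, Phf11b, Phf11c, Rnf213, Tgtp1 and Tgtp2. In Cd4 cells the counts were 19 of 31 members among 32 of 7297 genes (0.439%), and in co-receptor-negative cells 22 of 29 members among 38 of 7198 genes (0.528%). The lowest of the 4 pool ratios was above 1 for every one of these 26, 31 and 29 members. Lyz2, a macrophage gene, was on the Cd8 list, and the 5 myeloid markers summed to 57.2 to 755 CPM in Cd8 response cells against 10.2 to 160 CPM in the other Cd8 cells, higher in 4 of 4 pools. The 3 Cd3 genes were at 2211 to 2775 CPM against 2260 to 3331 CPM. The myeloid markers were higher in response cells in 2 of 4 pools of Cd4 cells and 3 of 4 pools of co-receptor-negative cells. The sum of the natural killer and gamma-delta markers was also higher in response cells in 4 of 4 pools of each T cell kind. That sum includes Fcer1g, which had a ratio of at least 2 in all 4 pools of Cd4 cells. The cell type behind it was not tested. Cells holding 2 or more B, myeloid or dendritic marker UMIs, with Lyz2, S100a8 and S100a9 not counted, were also left out. Then 16 of 25 members in Cd8 cells (0.470% of 6805 genes) had a ratio of at least 2 in all pools. In Cd4 cells 15 of 30 did (0.347% of 7201 genes).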

How the data were processed

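The 4 gene expression libraries (2 pools per group) and their T cell receptor libraries were made with 10x Genomics chemistry. Per the labels and the study's methods, the authors ran Cell Ranger 6.1.2 on GRCm38 and deposited filtered matrices of UMI counts per gene and cell, and receptor tables whose UMI counts per chain served here only to name clonotypes. The annotation release is not given in the sources used here.

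Cells with fewer than 200 genes or above 15% mitochondrial UMIs were dropped. Scrublet doublets were removed; its automatic threshold marked under 0.5% in 3 libraries, where the top 5% of scores were removed. Kinds of cells were defined by at least 1 UMI of their genes; cells without a Cd3 UMI and those with both co-receptors were left out. Counts were summed per pool and kind (at least 20 cells in the main sums, a limit not applied to the alternatives). They were tested with edgeR 4.0.16 (R 4.3.3, TMM, filterByExpr, quasi-likelihood, Benjamini-Hochberg over all genes tested, 0.05). Kinds were compared with the pool as a block; interaction terms compared group effects. Levels are CPM of all UMIs of the sum, without TMM scaling, while log2 differences are after it. Core genes per cell were counted after thinning to 3000 UMIs. Alternatives included DESeq2 1.42.0, other gates and filters, and each pool left out. The filter on B, myeloid or dendritic marker UMIs did not count Lyz2, S100a8 or S100a9. It took out 13204 kept cells, whose type was not tested. Under it the Kit Cd34 sum of control replicate 1 held 19 cells and was still fitted. The edgeR and DESeq2 fits were tested on simulated counts with known changes and an assumed spread between pools. Of 100 2-fold changes, edgeR recovered 36 and 37 in the 2 interaction tests and 77 to 100 in the other comparisons. The pool is the replicate, and p-values measure the spread between pools only; intervals cover counting error only, and free RNA in droplets was not removed.

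The members, gene lists and tests were chosen with earlier results of these data known. Named are members that passed (up to 12 per comparison by adjusted p), a panel of 20 by role, and the 5 members with the highest and the 5 with the lowest ratio of response to other cells. Others named were chosen after their values were seen: Ifit3b, Oas2, Oasl1, Rsad2, Eif2ak2 and similar calls beyond the 12. The comparison of the groups in Kit Cd34 cells was added after the data were seen. Mx1 and Mx2 were not analysed here. Comparisons planned between effector-gated and naive-gated Cd8 cells are not reported here.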

Additional observations from a re-analysis of the deposited data

Results flagged for a closer look

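One result was singled out because an effect of the group differed between kinds of cells. The difference of Ifi27l2a between the Runx1::Runx1t1 and control groups was larger by 0.81 ± 0.11 (log2, SE) in co-receptor-negative cells than in Cd8 cells, with an adjusted p of 0.0365 in edgeR's quasi-likelihood interaction test. Both Runx1::Runx1t1 pools lay above both control pools in co-receptor-negative cells, and the groups overlapped in Cd8 cells. Ifi27l2a was higher in Cd4 than in Cd8 cells. Cd4 cells in which no Cd4 UMI was read count as co-receptor-negative, and their part in this result was not tested. The call was lost when only co-receptor-negative cells with a Klrb1c or Klrk1 UMI were used, when cells with B, myeloid or dendritic marker UMIs were left out, and without either control pool. The groups are of 2 pools each, too few for a search for single outlying samples.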

How the results depend on the processing

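Of 43 named pairs of a member and a comparison, 537 alternatives were computed: 477 kept the direction and the call, 60 lost the call and 0 reversed the direction. The gate of 2 UMIs takes the same co-receptor-negative and Kit Cd34 cells as the main gate. Group comparisons in these 2 kinds therefore kept their calls under it by construction. Alternatives in which the gene was not tested or got no adjusted p are not in the tally. All 12 named members of the Cd4 and of the Kit Cd34 comparison with Cd8 cells kept their calls throughout. The numbers of members called moved more, and the cause was not tested. In the group comparison of Cd8 cells (0 called) it was 1 with DESeq2 (6.46% of all genes called). It was also 1 with no filter on low counts (4.12%) and with 1 cell per clonotype (4.79%). With a pool left out, the median log2 difference of the members was -0.21 to 0.15. In Cd4 cells (1) the count was 2 with DESeq2 (2.73%) and with a gate of 2 UMIs (2.13%), and 0 with 1 cell per clonotype (0.974%). It was 4 without response cells (1.90%) and without cells with B, myeloid or dendritic marker UMIs (3.98%). The median log2 difference with a pool left out was -0.36 (without control replicate 1) to 0.04 (without control replicate 2). In co-receptor-negative cells (3) it was 14 with no filter, 6 without response cells, 0 with Klrb1c or Klrk1 cells only, 8 without marker cells, and 3 to 13 with a pool left out (13 without control replicate 2). In Kit Cd34 cells (6) it was 2 with DESeq2 and without marker cells, 12 with no filter, and 2 to 11 with a pool left out.

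Between kinds, the co-receptor-negative comparison (8) gave 5 with DESeq2 (24.4% of all genes) and 3 to 10 with a pool left out (15.3% to 31.9%). The Cd4 comparison (29) gave 22 to 26 (33.3% to 42.7%) with a pool left out. The Kit Cd34 comparison (28) gave 21 to 25 (40.6% to 45.6%). In the interaction with Cd4 cells (0) the median log2 difference of the members was -0.094 to -0.003 with a pool left out. The interaction with co-receptor-negative cells (1) gave 2 with DESeq2 (1.85%) and 7 with no filter (4.19%). It gave 0 with Klrb1c or Klrk1 cells only (0%) and without marker cells (0.049%). Its median log2 difference was 0.16 to 0.31 with a pool left out, and the Ifi27l2a call was lost without either control pool. With a pool left out, the lone pool of its group is assumed to vary like the others.

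The share of response cells differed between the groups in Cd8 cells by 0.441 percentage points with at least 3 core genes and by 0.546 without thinning, against -0.329, and by -1.09 to 0.429 with a pool left out; the range was -1.12 to 0.722 in Cd4 and 0.0962 to 1.003 in co-receptor-negative cells. With at least 3 core genes, 2 members in Cd8, 12 in Cd4 and 7 in co-receptor-negative cells had a ratio of at least 2 in all pools, and 20 in Cd8 cells with at least 5.

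The replicate numbers are shared by the groups but mark nothing in the labels. Same-numbered pools deviated together with a correlation over genes of 0.263 in Cd8, 0.225 in Cd4 and 0.176 in co-receptor-negative cells. With the replicate block the group comparisons gave 6 members in Cd8 (1 higher and 5 lower, beside 8.38% of all genes), 10 in Cd4 (3 and 7, 6.81%), 18 in co-receptor-negative (15 and 3, 16.3%) and 12 of 42 in Kit Cd34 cells (7 and 5, 27.8%).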
